A study of Mus musculus with 3 samples.

Results

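Spiny projection neurons of the mouse nucleus accumbens were split by 4 activity-induced genes, Egr1, Arc, Npas4 and Egr4, into cells that held many of their transcripts and cells that held none. A spiny neuron was a cell with at least 1 UMI of Drd1 and none of Adora2a (Drd1 stratum), or the reverse (Adora2a stratum), with no UMI of Slc17a7, Mog or Aqp4 and with 2000 to 6000 UMIs. UMIs are random barcodes on each captured RNA molecule, so a UMI count is a count of molecules. The high arm took cells with at least 4 UMIs over the 4 genes and at least 2 of the genes detected, and the negative arm took cells with 0 UMIs of all of them. Of 11625 deposited cells, 10291 passed the filters on genes and mitochondrial UMIs, 1495 were spiny neurons in the UMI window, and 630 of these were members, 292 high and 338 negative. The other 865 spiny neurons lay between the arms.

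All cells came from Thy1::ChR2 mice, a strain that carries channelrhodopsin under the neuronal Thy1 promoter. The tissue was cut from a coronal section of 400 µm, after labelling with FLiCRE during optical stimulation of the channelrhodopsin, and libraries were made with a droplet 3′ kit (version 2). FLiCRE is a reporter system in which coincident calcium and light let the TEV protease release the transcription factor tTA, which then drives a fluorescent reporter, here taken to be the mCherry transcript. The 3 samples form 1 group, with no unstimulated or unlabelled animals, so the arms are classes of cells inside the same libraries, and neither the ages nor the number of animals behind a library is given in the sources used here.

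The libraries are numbered by the suffix of their cell barcodes, which no label ties to a numbered sample. Library 1 held 36 spiny neurons in the window, of which 0 were high and 18 negative, so it enters no comparison between the arms. Library 2 held 206 high and 277 negative cells and library 3 held 86 and 43. Each library gave a Drd1 and an Adora2a pair of summed counts, that is 4 blocks and 8 sums of 16 to 149 cells and 57737 to 477047 UMIs. Both blocks of a library share their tissue and preparation, so the p-values below measure the spread between these sums, which may be technical. Libraries 1 and 2, 1 and 3, and 2 and 3 shared 13, 7 and 22 barcode sequences, and 0 of the members' barcodes were shared. High cells were somewhat deeper, with a median of 3411 UMIs and 1983.5 genes against 2971.5 UMIs and 1780.5 genes in negative cells.

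Neuronal firing raises calcium and cyclic AMP, and kinases then phosphorylate transcription factors such as CREB and the serum response factor that already sit at the promoters of immediate early genes. These genes are transcribed within minutes without new protein. Many of them encode transcription factors (the Fos, Jun, Egr and Nr4a families and Npas4), which in turn act on slower genes, while others encode proteins that act at the synapse (Arc, Homer1) or dampen the signal (Rgs2, the Dusp phosphatases). In the striatum, spiny neurons with the dopamine receptor gene Drd1 and those with the adenosine receptor gene Adora2a form the direct and indirect output pathways.

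The values that chose the high cells are given here as a description. Egr1, a zinc finger factor, was detected in 98.6% of high cells and gave 60.0% of their activity UMIs, and Egr4, a factor of the same family, was detected in 86.0%. Arc, which acts in trafficking of synaptic glutamate receptors, was detected in 47.9%, and Npas4, a factor induced by calcium, in 23.3%. Of the 292 cells, 157 held 2 of the genes, 107 held 3 and 28 held all 4, and the most frequent pair alone was Egr1 with Egr4, in 119 cells. The median activity sum was 6 and the highest was 21. Just inside the threshold were 58 cells with a sum of exactly 4, and just outside were 160 cells with a sum of 3. A further 94 cells reached a sum of 4 with a single gene, which was Egr1 in 93 of them, and belonged to neither arm.

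Free RNA can put transcripts of a gene into droplets whose cell does not express it. Oligodendrocyte-like cells of libraries 2 and 3 (Mog detected, with no UMI of Drd1, Adora2a, Slc17a7 or Aqp4, same UMI window) met the high rule in 5 of 465 cells, or 1.08% (exact Clopper-Pearson 95% interval 0.350% to 2.49%). Spiny neurons met it in 292 of 1459 cells, or 20.01% (17.99% to 22.2%). The median depth of oligodendrocyte-like cells and spiny neurons was 2718 and 3134.5 UMIs in library 2 and 4153 and 3142 UMIs in library 3. Egr1 alone had a UMI in 19.3% of the oligodendrocyte-like cells and 69.7% of the spiny neurons of library 2, and in 3.57% and 75.6% of those of library 3. The gap was much narrower for Arc, with 8.18% and 11.7% in library 2 and 12.2% and 22.5% in library 3. For Egr4 the shares were 5.95% and 26.8%, and 3.57% and 39.5%. For Npas4 they were 0.37% and 5.22%, and 2.04% and 14.4%. The intervals given cover counting error only.

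The transcripts outside the rule that were higher in the high arm at an adjusted p under 0.05 were 4: the transcription factors Nr4a1, Junb and Fos and the G protein regulator Rgs2. That is 0.0819% of the 4886 features tested with edgeR's quasi-likelihood test, with the block of library and stratum in the fit and Benjamini-Hochberg adjustment over all features. Another 3 transcripts, Sst, Npy and Lyz2, were lower (0.0614%), which makes 7 calls in all (0.143%), and 359 features had an unadjusted p under 0.05. All 4 higher genes exceeded the paired negative sum in 4 of 4 blocks, which 13.1% of all features tested also did. For each of the 4, every high sum also lay above every negative sum. The share of all features that did so was not counted. It cannot exceed that 13.1%, since such a feature is higher in every block.

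Because these 4 genes rose together, the 250 bases upstream of their start sites are shown, from RefSeq sequence of build GRCm38.p6. Capitals mark the half-site of the cyclic AMP response element, TGACG, searched on both strands (CGTCA on the other strand). The first is the window of Nr4a1, which encodes an orphan nuclear receptor, at chr15:101266596-101266845 on the plus strand. It lies inside the annotated gene (chromosome 15, 101253902 to 101274795), which also has a start further upstream, and it holds 4 matches, beginning 233, 213, 69 and 40 bases before the start site:
Nr4a1: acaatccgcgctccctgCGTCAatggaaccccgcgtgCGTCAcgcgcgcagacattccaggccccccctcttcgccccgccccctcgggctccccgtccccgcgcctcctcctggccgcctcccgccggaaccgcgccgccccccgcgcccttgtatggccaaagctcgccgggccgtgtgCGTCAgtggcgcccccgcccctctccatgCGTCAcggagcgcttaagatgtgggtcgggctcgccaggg
The window of Fos, chr12:85473640-85473889 on the plus strand, holds 2 matches:
Fos: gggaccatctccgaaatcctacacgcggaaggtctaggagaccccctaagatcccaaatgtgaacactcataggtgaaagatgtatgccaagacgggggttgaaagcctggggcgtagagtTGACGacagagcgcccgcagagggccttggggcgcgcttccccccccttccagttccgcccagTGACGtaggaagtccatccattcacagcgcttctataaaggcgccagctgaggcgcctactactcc
The window of Junb, chr8:84978749-84978998 on the minus strand, holds 1 match:
Junb: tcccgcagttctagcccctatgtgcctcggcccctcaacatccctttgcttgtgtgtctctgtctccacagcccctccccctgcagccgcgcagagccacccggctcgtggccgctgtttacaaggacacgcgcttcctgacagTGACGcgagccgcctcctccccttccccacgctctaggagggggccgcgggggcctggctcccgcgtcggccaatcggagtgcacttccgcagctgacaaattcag
The window of Rgs2, chr1:144004150-144004399 on the minus strand, holds 2 matches:
Rgs2: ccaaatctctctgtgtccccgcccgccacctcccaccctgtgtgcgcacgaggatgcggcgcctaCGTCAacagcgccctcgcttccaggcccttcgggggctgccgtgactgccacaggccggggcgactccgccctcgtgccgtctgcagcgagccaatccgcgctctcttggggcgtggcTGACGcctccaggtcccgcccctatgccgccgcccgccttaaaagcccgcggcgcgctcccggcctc

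The half-site TGACG occurred in 17.8% of 32851 RefSeq promoter windows of this length. None of the 4 windows holds the full element TGACGTCA (1.55% of all windows, overlapping the half-site), a CArG box, the serum response element (1.47%), or the Fos and Jun site TGACTCA (4.46%). The Egr site GCGNGGGCG was found once each in the windows of Nr4a1 and Rgs2 (4.70% of all windows). A match is a description of these letters and not a measured binding site.

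Nr4a1 (ENSMUSG00000023034) differed most. Levels are given as CPM, the gene's UMIs scaled to a fixed total of UMIs per sum, with the 9 genes of the rule left out of the total. In library 2 it stood at 182 CPM in high and 21.0 CPM in negative Drd1 cells, and at 274 and 28.6 CPM in Adora2a cells. In library 3 it stood at 214 CPM in high and 0 CPM in negative Drd1 cells, where a count of 0 allows up to 34.8 CPM, and at 209 and 17.3 CPM in Adora2a cells. The lowest high sum (182 CPM) lay far above the highest negative sum (28.6 CPM). The fitted log2 fold change was 3.33 (SE 0.316), about 10.1-fold, with an adjusted p of 6.9e-05 in edgeR. Nr4a1 was detected in 47.3% of high cells and 6.25% of negative cells of libraries 2 and 3, and the highest single cell gave 2.17% of its UMIs in the high arm.

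Junb (ENSMUSG00000052837), a Jun family partner of Fos proteins, was measured in every sum. Its level in high and negative cells of library 2 was 508 and 189 CPM in the Drd1 block and 621 and 202 CPM in the Adora2a block. In library 3 the same values were 564 and 116 CPM, and 639 and 260 CPM. The lowest high sum was above the highest negative sum. The fitted log2 difference was 1.54 (SE 0.220), with an adjusted p of 0.00973 in edgeR, and Junb was detected in 70.5% of high and 39.4% of negative cells.

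Fos (ENSMUSG00000021250), the founding member of its family and a common marker of recent neuronal activity, was lower in level and closer to the threshold. High and negative cells of library 2 held 129 and 44.0 CPM (Drd1) and 108 and 38.1 CPM (Adora2a), and those of library 3 held 117 and 46.4 CPM and 91.3 and 34.6 CPM. The groups did not overlap. On the log2 scale the difference was 1.43 (SE 0.260), with an adjusted p of 0.0423 in edgeR. Fos had a UMI in 27.4% of high and 7.81% of negative cells, and the 43 Fos UMIs of the negative arm included cells with 6, 5 and 5 UMIs. It lost the call without the block (1.39, edgeR adjusted p 0.110) and in DESeq2 (1.41, adjusted p 0.337).

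Rgs2 (ENSMUSG00000026360), which speeds the switching off of G protein signals, was the only one of the 4 that does not encode a transcription factor. In library 2 it stood at 656 and 293 CPM in high and negative Drd1 cells and at 840 and 257 CPM in Adora2a cells. In library 3 it stood at 746 and 336 CPM, and at 684 and 191 CPM. Every high sum exceeded every negative sum. The fit put the difference at 1.37 on the log2 scale (SE 0.203), with an adjusted p of 0.00973 in edgeR, and Rgs2 was detected in 85.3% of high and 56.3% of negative cells, so the arms differed in the number of molecules per cell as well as in detection.

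**Figure D1:**
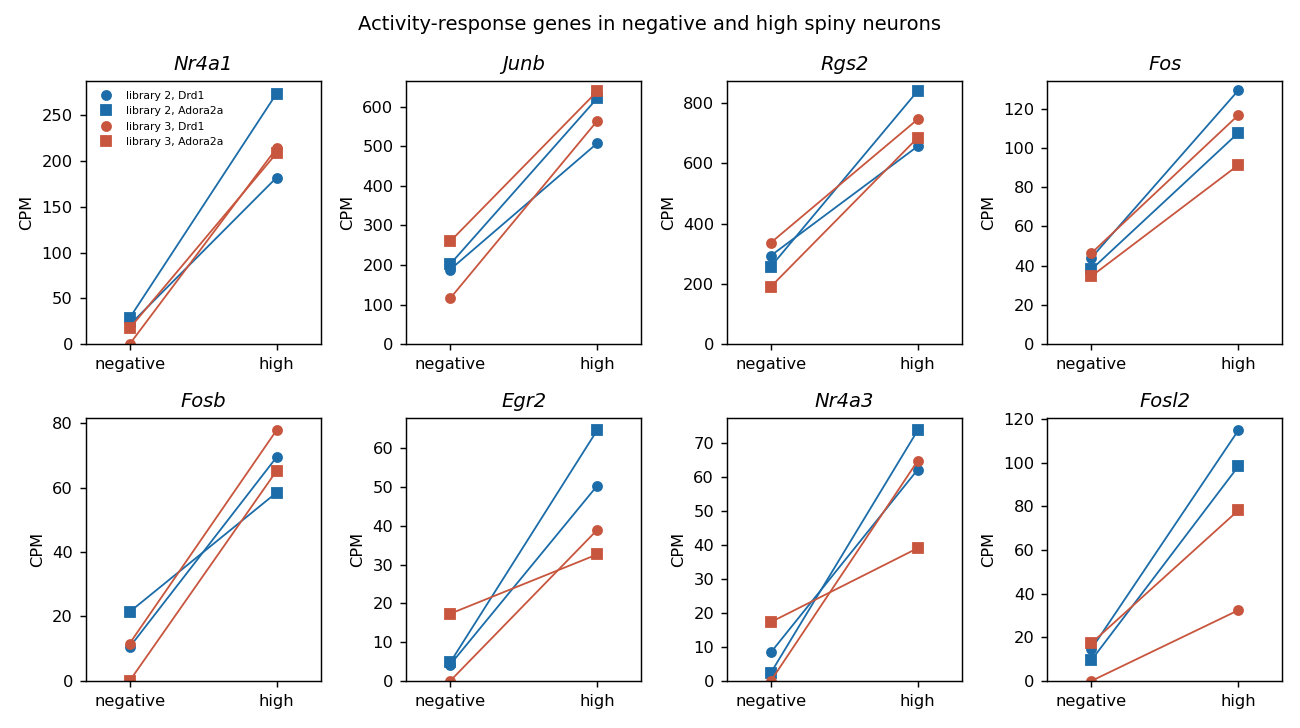
CPM (vertical axis, from 0) of 8 activity-response genes in negative and high sums; each line joins the arms of 1 block (color: library, symbol: stratum). All 4 lines rise for Nr4a1, Junb, Rgs2 and Fos, and also for Fosb, Egr2, Nr4a3 and Fosl2, of which only the first was tested with the filter by arm.

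Leaving out libraries showed how far these calls rest on library 2. With library 3 alone, 3 of 2910 features passed (0.103%), of which 1 was higher, Nr4a1 (log2 fold change 4.58, edgeR adjusted p 0.0051). Junb, Rgs2 and Fos then had log2 fold changes of 1.60, 1.32 and 1.22 and an adjusted p of 0.997. With library 2 alone, 35 features were higher (0.504% of 6939) and 33 lower (0.476%), and Nr4a1, Junb, Rgs2 and Fos were all called. Summing both strata of a library, which leaves 1 pair of sums per library, gave 20 higher (0.257% of 7781) and 58 lower features (0.745%). In the Drd1 stratum alone, with 2 pairs of sums, edgeR called 0 features (293 at an unadjusted p under 0.05), and Nr4a1, Junb and Rgs2 each had an adjusted p of 0.0711. In the Adora2a stratum alone, Nr4a1 was called (3.21, edgeR adjusted p 0.000107), while Junb, Rgs2 and Fos had adjusted p of 0.469, 0.155 and 0.684. Of 21 other settings that changed the sums or the fit, Nr4a1 was tested in 19 and called in 18, Junb and Rgs2 were called in 18 of 21, and Fos was tested in 18 and called in 10.

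Levels of the 4 genes were also read over the whole range of the activity sum, as a description, since the outer bins are the arms. Nr4a1 in library 2 stood at 24.5 CPM in cells with a sum of 0, 39.1 at 1, 56.1 at 2, 52.4 at 3, 169 at 4 to 5 and 253 at 6 or more. In library 3 it stood at 6.9, 39.7, 84.6, 94.7, 76.3 and 269 CPM over the same bins, so the step at the threshold seen in library 2 was not seen there. Junb rose mainly in the last bins, from 195 CPM at 0 and 236 CPM at 3 to 375 CPM at 4 to 5 and 663 CPM at 6 or more in library 2. The median depth of these bins in library 2 ranged from 2963 to 3593 UMIs, with the highest in the last bin. Cells with 4 or more UMIs of a single gene, 77 in library 2 and 16 in library 3, held 226 and 188 CPM of Junb, below the 375 and 349 CPM of cells with a sum of 4 to 5 over several genes.

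**Figure D2:**
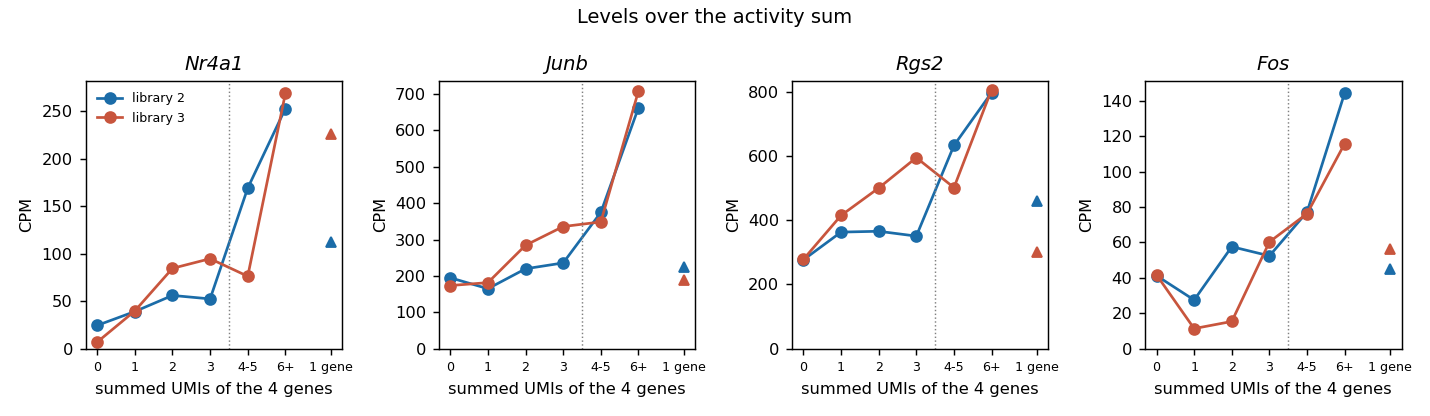
CPM (from 0) of Nr4a1, Junb, Rgs2 and Fos by summed UMIs of Egr1, Arc, Npas4 and Egr4 in libraries 2 and 3; the dotted line is the high threshold and triangles are cells that reached it with 1 gene. All 4 genes are highest in cells with 6 or more UMIs, and the course below the threshold differs between the libraries.

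Each of the 4 rule genes was tested in arms chosen on the other genes alone (high: at least 3 UMIs and 2 genes detected). Egr4, with arms of 187 and 394 cells, stood at 435 and 58.0 CPM in high and negative Drd1 cells and 358 and 51.6 CPM in Adora2a cells of library 2, and at 415 and 107 CPM and 526 and 30.7 CPM in library 3. The high and negative sums of these libraries did not overlap, and how many other features did the same was not counted. The fitted log2 difference was 2.72 (SE 0.246), with an adjusted p of 7.1e-25 in edgeR (0.769% of features called). That fit included 1 high cell of library 1. Without library 1 the difference was 2.73 (SE 0.223), with an adjusted p of 2.5e-08 in edgeR. Without library 2, which left library 3 and the pair of sums with 1 high cell of library 1, Egr4 did not pass the filter on low counts. In library 3 it had 46 and 13 UMIs in high and negative Drd1 cells and 46 and 2 UMIs in Adora2a cells. Arc stood at 179 and 17.9 CPM, and 92.8 and 20.03 CPM, in library 2, and at 198 and 0 CPM (a 0 that allows up to 34.8 CPM), and 204 and 57.5 CPM, in library 3. Arc differed by 2.79 on the log2 scale (SE 0.355), with an adjusted p of 0.00139 in edgeR (0.285% of features called).

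Egr1 could be tested in 107 high and 932 negative cells chosen without it, and its negative sums were far from empty. It stood at 1056 and 434 CPM, and 1179 and 432 CPM, in library 2, and at 1183 and 399 CPM, and 1157 and 534 CPM, in library 3. Egr1 differed by 1.34 on the log2 scale (SE 0.156), with an adjusted p of 1.2e-14 in edgeR (0.603% of features called), and without library 2 by 1.28 with an adjusted p of 0.161. Library 1 added 1 high cell per stratum at most to the arms of Egr1, Egr4 and Npas4, with 0 UMIs of the tested gene. Without library 1, Egr1 differed by 1.34, with an adjusted p of 1.1e-12 in edgeR. Npas4 passed the filter on low counts only without library 1, where it differed by 2.97 on the log2 scale (SE 0.429), with an adjusted p of 0.00408 in edgeR (0.181% of features called).

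Among the relatives of the called transcription factors, several were too sparse for the filter by arm. Of 9 listed Fos and Jun family genes, 5 were tested, 2 were higher and the median log2 fold change was 1.43, against -0.0045 over all features tested. Fosb, a Fos relative, narrowly missed the threshold (2.17, SE 0.422, edgeR adjusted p 0.0546), at 69.4 and 10.5 CPM, 58.4 and 21.4 CPM, 77.8 and 11.6 CPM, and 65.2 and 0 CPM (a 0 that allows up to 52.0 CPM) in high and negative cells of the 4 blocks. Jun itself (-0.67, adjusted p 0.699) and Jund (-0.08, adjusted p 0.943) did not pass. Jun was higher in 2 of 4 blocks.

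With a filter on the mean over all sums, blind to the arms, 9617 features were tested, 8 were higher (0.0832%) and 4 lower (0.0416%). The higher ones included Nr4a1, Junb, Rgs2, Fos, Fosb (2.20, edgeR adjusted p 0.0440) and 3 further transcription factors. Nr4a3, a nuclear receptor related to Nr4a1, had 66 UMIs in high and 6 in negative cells (log2 fold change 3.39, adjusted p 0.0124). Egr2, of the Egr family, had 53 and 5 UMIs (3.33, adjusted p 0.0217). Fosl2, of the Fos family, had 97 and 12 UMIs (3.05, adjusted p 0.000934). These genes were higher in 4 of 4 blocks. Klf6, a zinc finger factor, was lower, with 5 and 35 UMIs (-3.01, adjusted p 0.0373). It stood at 4.8 and 25.2 CPM, 3.1 and 30.9 CPM, 6.5 and 23.2 CPM, and 6.5 and 139 CPM in high and negative cells of the 4 blocks. The last negative value came from 8 UMIs in the 16 Adora2a cells of library 3. Of these cells, 9 had at least 5 of the 8 spiny markers described below. Egr3 had 0 UMIs in the members and 2 in all cells, and Nr4a2 and Bdnf were too sparse for both filters.

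Other rapid regulators gave no call with the filter by arm: 7 of 25 listed were tested, none passed in either direction, and the median log2 fold change was -0.06. With the filter on the mean, 19 were tested, 5 were positive, 1 was lower (Klf6) and the median was -0.19. Per1, a clock gene induced by CREB, stood at 0.94 (edgeR adjusted p 0.234) and was higher in 4 of 4 blocks. Cebpb, a factor of inflammatory and glial responses, stood at -1.14 (adjusted p 0.158). Btg2 and Ier2 were not tested with the filter by arm, and with the filter on the mean they stood at 0.41 and -1.50 with adjusted p of 0.888 and 0.685.

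Of 19 listed phosphatases and feedback inhibitors, 10 were tested and 1, Rgs2, was higher; the median was 0.58. Dusp6, a phosphatase that inactivates ERK, stood at 1.79 (SE 0.391, edgeR adjusted p 0.128), with 71.8 and 8.4 CPM, 73.8 and 42.8 CPM, 110 and 11.6 CPM, and 143 and 34.6 CPM in the 4 blocks. Dusp14, another phosphatase of MAP kinases, stood at 1.03 (adjusted p 0.234). Dusp1, a phosphatase induced by many stimuli, stood at 0.35 (adjusted p 0.786) and was higher in 3 of 4 blocks. Rgs4, a relative of Rgs2, stood at 0.17 (adjusted p 0.866).

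Of 32 listed synaptic and secreted activity-response genes, 13 were tested, 12 had a positive log2 fold change (49.4% of all features tested did), none passed, and the median was 0.61. Vgf, a secreted neuropeptide precursor, came nearest (1.03, SE 0.206, edgeR adjusted p 0.0738), with 484 and 233 CPM, 440 and 195 CPM, 344 and 220 CPM, and 339 and 104 CPM in high and negative cells of the 4 blocks. Arl4d, a small GTPase, stood at 1.78 (adjusted p 0.0637). Homer1, a scaffold of the postsynaptic density, stood at 0.81 (adjusted p 0.409), and Nptx2, a secreted pentraxin that clusters glutamate receptors, at 1.08 (adjusted p 0.296). Vgf, Arl4d, Homer1 and Nptx2 were each higher in 4 of 4 blocks.

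Genes of spiny neuron identity and signalling gave no call either. Of 30 listed, 22 were tested, 21 had a positive log2 fold change, against 49.4% of all features, and the median was 0.27. The median was 0.15 over cells with at least 5 of the 8 spiny markers described below. Pde10a, a striatal phosphodiesterase, stood at 0.50 (edgeR adjusted p 0.657) and Ppp1r1b, which encodes DARPP-32, at 0.12 (adjusted p 0.893). Among the peptides, Penk (enkephalin) stood at 0.59 (adjusted p 0.409) with 9314 and 6010 CPM in Adora2a cells of library 2 and 10189 and 6097 CPM in those of library 3. Pdyn (dynorphin) stood at 0.69 (adjusted p 0.626), Tac1 (substance P) at 0.46 (adjusted p 0.692) and Cartpt at 0.62 (adjusted p 0.657). Drd2 had 16 UMIs in all cells and was not tested.

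Heat shock genes, which rise in stressed or dissociated tissue, had a median log2 fold change of 0.02 over 10 tested genes, with no call. Hspa8 stood at 0.06 (edgeR adjusted p 0.9504) and Dnajb1 at 0.03 (adjusted p 0.986). Of the genes of calcium and CREB signalling, 23 were tested, none passed and the median was 0.13. Interferon-response genes had a median of -0.26 over 5 tested genes, and of -1.26 over the 15 tested with the filter on the mean, of which 1 was positive, with no call by either filter. Their summed level was 565 CPM in high and 1235 CPM in negative cells of library 2, and 559 and 1105 CPM in those of library 3. By stratum, it was 587 and 1015 CPM (Drd1) and 538 and 1485 CPM (Adora2a) in library 2. In library 3 the strata went opposite ways, with 895 and 406 CPM (Drd1) and 222 and 2148 CPM (Adora2a, 16 negative cells).

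**Figure D3:**
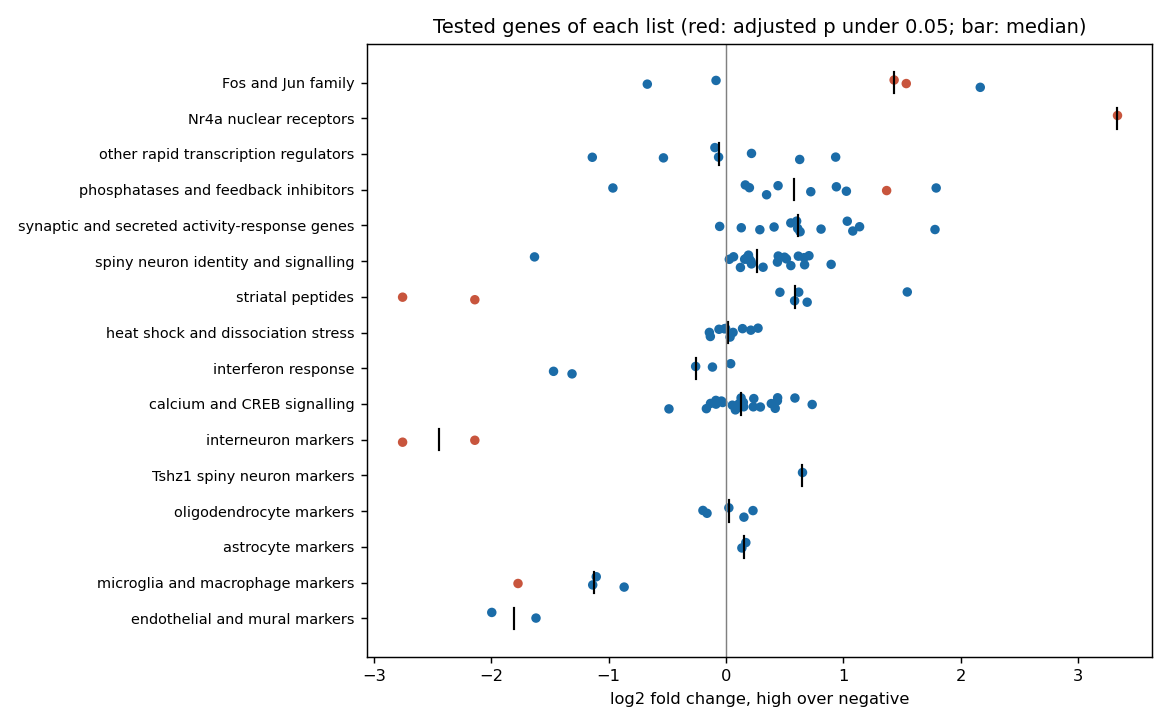
Log2 fold change, high over negative (horizontal axis), of each tested gene by list; red points had an edgeR adjusted p under 0.05 and black bars are list medians. Higher calls lie in the Fos and Jun, Nr4a and feedback lists, and lower calls among interneuron genes, which are also listed as peptides, and microglial genes.

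The 3 lower transcripts are markers of other cell types. Sst and Npy are peptides of striatal interneurons and Lyz2 is a lysozyme of microglia and macrophages. Sst stood at 81.4 and 568 CPM in high and negative Drd1 cells and 83.1 and 745 CPM in Adora2a cells of library 2 (-2.76 on the log2 scale, SE 0.440, with an edgeR adjusted p of 0.00973). In library 3 it stood at 19.5 and 0 CPM and 6.5 and 0 CPM, where the counts of 0 allow up to 34.8 and 52.0 CPM, so no difference between the arms was detectable there. Npy followed Sst, with 69.4 and 300 CPM and 61.5 and 412 CPM in library 2 (-2.14, SE 0.374, adjusted p 0.0321). Lyz2 stood at 151 and 323 CPM and 129 and 692 CPM in library 2, and at 6.5 and 23.2 CPM and 0 and 0 CPM in library 3 (-1.77, SE 0.304, adjusted p 0.0323).

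Few cells held most of these transcripts. In the negative arm, 2 cells held 283 and 231 of the 584 Sst UMIs and 146 and 113 of the 317 Npy UMIs, and 3 cells held 149, 81 and 74 of the 447 Lyz2 UMIs. In the high arm no cell held over 6 UMIs of Sst, 3 of Npy or 6 of Lyz2. Sst had a UMI in 19.2% of high and 19.4% of negative cells. In libraries 2 and 3, 6 negative cells held 20 or more UMIs of Sst, Npy, Lyz2 or Spp1, all of library 2 and all with 0 or 1 UMI of Ppp1r1b. Of the spiny markers described below, the 2 cells richest in Sst had 4 each detected. The cells with 149, 81 and 74 UMIs of Lyz2 had 3, 1 and 7 detected, and the cell with 23 UMIs of Spp1 had 1. Without these 6 cells, edgeR called 0 features lower (344 at an unadjusted p under 0.05) and 4 higher. Those 4 were again Nr4a1 (3.30), Junb (1.54), Fos (1.66) and Rgs2 (1.36).

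**Figure D4:**
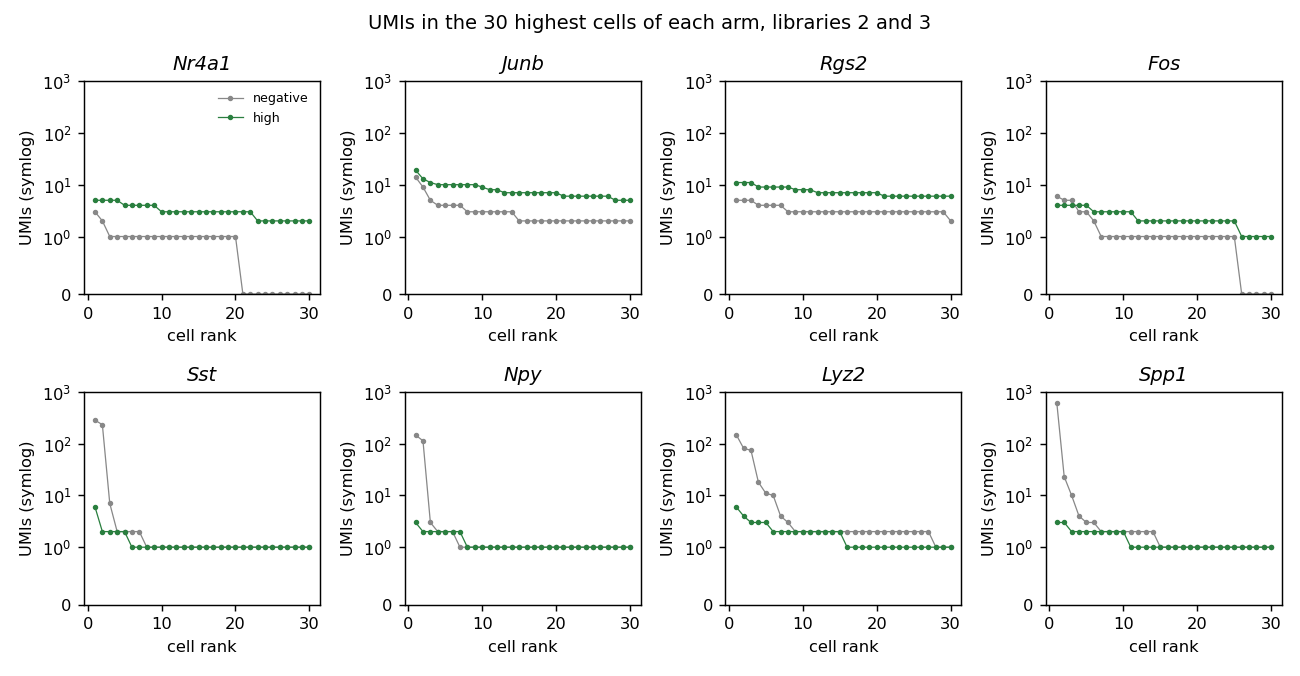
UMIs per cell (vertical axis, linear up to 1 and log above) in the 30 highest cells of each arm in libraries 2 and 3. Nr4a1, Junb and Rgs2 are spread over many high cells, whereas single negative cells reach 283 UMIs of Sst, 146 of Npy, 149 of Lyz2 and 608 of Spp1.

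The label of spiny neuron was checked on 8 markers that the rule did not use (among them Ppp1r1b, Bcl11b, Rgs9, Pde10a, Pde1b, Foxp1 and Meis2). At least 2 were detected in 97.5% of members, in 100% of high and 95.3% of negative cells. Of 10 markers of other cell types, among them Sst and Npy, at least 1 was detected in 52.1% of high and 52.1% of negative cells. The stricter gate named below required at least 2 of the 8 spiny markers and none of these 10, which kept 140 high and 143 negative cells. Fewer than 5 of the 8 spiny markers were detected in 8 high and 51 negative cells, and fewer than 2 in 0 high and 16 negative cells. The negative arm therefore held more cells that were weak in spiny markers than the high arm did. At least 5 were detected in 134 of 149 Drd1 and 106 of 128 Adora2a negative cells of library 2. In library 3 they were detected in 25 of 27 Drd1 but only 9 of 16 Adora2a negative cells, against 43 of 43 high Adora2a cells. With at least 5 of the 8 required, which like the removal of 6 cells above was an alternative chosen after seeing the data, edgeR called 12 features higher (0.249% of 4821) and 0 lower (292 at an unadjusted p under 0.05). Nr4a1 (3.33), Junb (1.83), Fos (2.62) and Rgs2 (1.27) were joined by Fosb (2.28, adjusted p 0.0025), Dusp6 (2.36, 0.0023), Nts (1.79, 4.2e-05), Arl4d (1.72, 0.0030), Vgf (1.04, 0.0028), Dusp14 (0.94, 0.0483), R3hdm1 (0.78, 0.0289) and Gm13889 (0.87, 0.0248). Nts, the peptide neurotensin, rested on library 2: over all members it stood at 721 and 195 CPM and 231 and 49.97 CPM there, and at 45.4 and 46.4 CPM and 84.7 and 104 CPM in library 3.

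Markers of other types moved with the arms as follows, as summed levels per library. The 10 microglia and macrophage markers, all detected, summed to 528 CPM in high and 1328 CPM in negative cells of library 2 and to 120 and 167 CPM in library 3; 4 were tested, 1 was lower and the median was -1.12. The 11 interneuron markers, with Chat at 0, summed to 167 and 1059 CPM and to 39.0 and 13.9 CPM. The 8 endothelial and mural markers, all detected, summed to 162 and 364 CPM and to 65.0 and 1973 CPM; 2 were tested and neither passed. T cell markers, with Cd8a at 0 and 5 of 6 in the matrix, summed to 5.4 and 21.2 CPM and to 3.3 and 160 CPM. In library 3, endothelial and mural markers stood at 65.2 and 4746 CPM in high and negative Adora2a cells and 64.8 and 116 CPM in Drd1 cells. T cell markers stood there at 6.5 and 398 CPM in Adora2a cells and 0 and 0 CPM in Drd1 cells. The 7 oligodendrocyte markers, all detected, summed to 961 and 968 CPM and to 731 and 597 CPM, with a median log2 fold change of 0.02 over 5 tested. With at least 5 of the 8 spiny markers required, the microglia and macrophage median was -0.49 over 4 tested genes. The interneuron median was then 0.089 over 2 tested genes, and 1 endothelial and mural gene was tested, at -0.48. None of these lists then had a lower call. The part of cells of other types in results other than those given without them was not tested. No doublet caller was run, and doublets were limited only by the exclusive markers of the rule and its UMI ceiling.

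The response did not differ detectably between the strata for the called activity genes. The difference of log2 fold changes, Adora2a minus Drd1, was -0.27 for Nr4a1, -0.35 for Junb, -0.11 for Fos and 0.48 for Rgs2, each with an adjusted p of 0.999 in edgeR's interaction test. That test called 2 features (0.0409%), Spp1 and Crip1, both through negative cells of the Adora2a stratum. Spp1, the secreted protein osteopontin, stood at 110 and 113 CPM in Drd1 and 105 and 1623 CPM in Adora2a cells of library 2, and 608 of the 736 Spp1 UMIs of the negative arm came from 1 cell.

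The share of cells with reporter transcript was read per arm. mCherry had at least 1 UMI in 25.7% of 206 high cells (exact 95% interval 19.9% to 32.3%) and 20.9% of 277 negative cells (16.3% to 26.2%) of library 2. In library 3 it had one in 16.3% of 86 high cells (9.20% to 25.8%) and 18.6% of 43 negative cells (8.39% to 33.4%). Library 1 had 0 of 18 negative cells with mCherry, which allows a share of up to 16.7% by a floor of 3 cells and up to 18.5% by the exact 95% limit. The order of the arms was opposite in the 2 libraries and the intervals overlapped in both. The mean difference, high minus negative, was 1.23 percentage points ± 5.03 (SD, n = 2 libraries; two-sided exact sign-flip permutation test p = 1, and 0.5 is the smallest that 2 libraries allow).

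Thinning left the arms in opposite order in the 2 libraries. With each cell thinned to 2000 UMIs, the shares were 17.0% and 13.0% in library 2 and 9.30% and 16.3% in library 3, and the mean difference was -1.49 points. At 2 or more mCherry UMIs the order was not opposite. High and negative shares were then 7.77% and 3.61% in library 2 and 6.98% in both arms of library 3, a mean difference of 2.08 points. The level of mCherry stood at 125 and 96.4 CPM, and 92.3 and 69.0 CPM, in library 2, and at 84.3 and 104 CPM, and 71.7 and 69.3 CPM, in library 3. The fitted log2 difference was 0.19 (SE 0.249), with an adjusted p of 0.875 in edgeR, and was -0.28 with library 3 alone. Oligodendrocyte-like cells had a UMI of mCherry in 11.9% of cells of library 2 (8.28% to 16.4%), against 23.9% of all its spiny neurons (21.5% to 26.4%). In library 3 the shares were 2.55% (0.833% to 5.85%) and 15.1% (11.1% to 19.96%), at the median depths given above.

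The other FLiCRE transcripts, which do not need calcium to be transcribed, were detected more often in high cells of both libraries. TEV had a UMI in 56.8% of high and 41.9% of negative cells of library 2 and in 65.1% and 44.2% of library 3. The difference was 17.9 points ± 4.25 (SD, n = 2 libraries; exact sign-flip permutation p = 0.5, the smallest possible), and 10.1 points after thinning to 2000 UMIs. tTA had a UMI in 37.4% and 27.8%, and 40.7% and 27.9%, a difference of 11.2 points ± 2.27 (exact sign-flip permutation p = 0.5), and 9.56 points after thinning. The summed level of TEV did not pass (0.45 on the log2 scale, SE 0.246, with an edgeR adjusted p of 0.670) and was higher in 3 of 4 blocks, and tTA stood at 0.20 (SE 0.292, adjusted p 0.890). With library 2 alone, TEV stood at 0.76 with an edgeR adjusted p of 0.00778, and with library 3 alone at 0.021 with an adjusted p of 0.998. With the strata pooled, the TEV level was 490 and 290 CPM in high and negative cells of library 2 and 517 and 618 CPM in those of library 3, the opposite order. In library 3, 2 of 43 negative cells held 44.9% of the TEV UMIs of that arm, against 19.5% in 2 of 86 high cells. For tTA the shares held by 2 cells were 74.1% in negative and 14.1% in high cells. The part of these cells in the order of the levels was not tested.

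**Figure D5:**
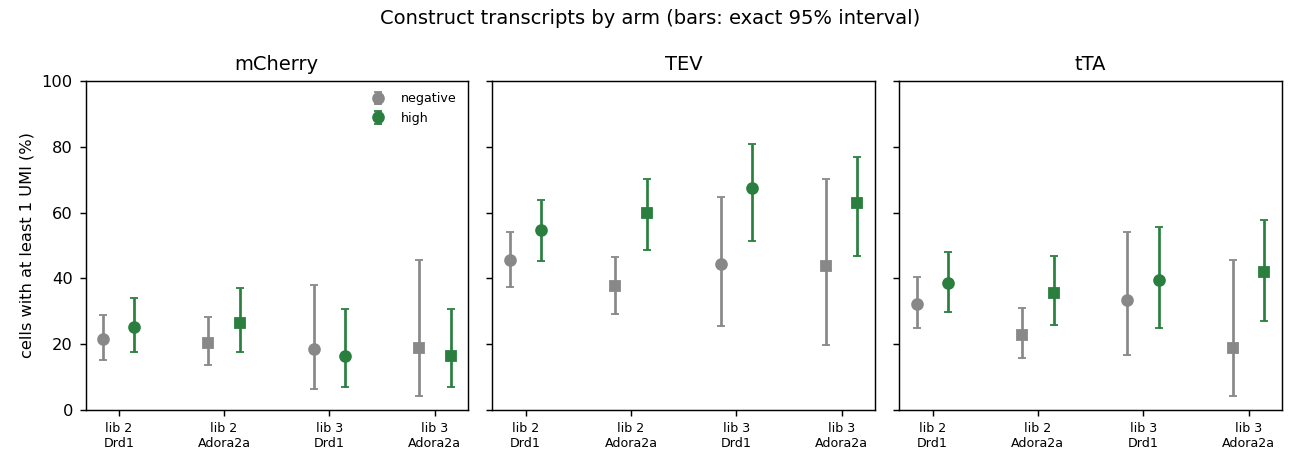
Share of cells with at least 1 UMI (vertical axis, percent) of mCherry, TEV and tTA in negative (grey) and high (green) cells of each block; bars are exact 95% intervals for counting error. For mCherry the intervals of the arms overlap in every block. For TEV and tTA the high share is above the negative one in every block. The tTA intervals nevertheless overlap in every block, and the TEV intervals overlap in every block except the Adora2a block of library 2.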

How the data were processed

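The authors deposited whole UMI counts per feature and cell, 28001 features in 1 pooled matrix made with Cell Ranger 3.0.0, per the file headers; the submitters' processing notes name mm10. The annotation release, the rule that called cells and any thinning at pooling are not given in the sources used here. Cells with at least 300 genes, at most 20% mitochondrial UMIs and 2000 to 6000 UMIs were kept, and counts were summed per library, stratum and arm without the 9 rule genes. Sums were compared in edgeR 4.0.16 (TMM, filterByExpr by arm, robust prior, legacy=FALSE, block of library and stratum, 3 residual degrees of freedom), with DESeq2 1.42.0 as an alternative. The fit was also run on simulated counts with known fold changes, drawn independently for each sum at a common dispersion. The simulation held neither a correlation between the blocks of a library nor single cells rich in a transcript, so it does not bear on either. Standard errors are the log2 fold change over the square root of F. The arms of a block pair because they come from 1 library. The members, lists and tests were chosen with earlier results of these data known. Named genes are up to 15 higher and 10 lower called features with the same sign in every library holding both arms (2 of 3, since library 1 held no high cell), all called genes of 20 lists (252 of 255 genes in the matrix) and a fixed set; others were named after their values were seen. Alternatives covered scaling, filters, prior, block, depth, thresholds, gates and left-out libraries. Python 3.11.15 and R 4.3.3 were used. A gene of the spiny marker lists that entered the counts is not reported here by name.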

Additional observations from a re-analysis of the deposited data

Results flagged for a closer look

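The difference between the arms differed between the strata for Spp1 and for Crip1 by edgeR's interaction test. The difference of log2 fold changes, Adora2a minus Drd1, was -4.01 for Spp1 (adjusted p 0.00213) and -3.77 for Crip1 (adjusted p 0.0396). Crip1, a small LIM domain protein, stood at 64.6 and 62.9 CPM in high and negative Drd1 cells and 27.7 and 171 CPM in Adora2a cells of library 2, and at 13.0 and 0 CPM and 6.5 and 381 CPM in library 3. Without the 6 negative cells that held 20 or more UMIs of Sst, Npy, Lyz2 or Spp1, the difference was -0.03 for Spp1 (edgeR adjusted p 0.999) and -3.63 for Crip1 (adjusted p 0.331).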

How the results depend on the processing

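Nr4a1, Junb and Rgs2 kept their direction in every setting that tested them. The count of higher genes (4) moved to 7 with no filter on low counts, 8 with the filter on the mean, 8 with the package-default prior, 20 with the strata pooled and the library as replicate block, 8 with negative cells matched on UMIs, 9 with high cells from a sum of 6, 2 from a sum of 3, 12 with at least 5 of 8 spiny markers, and 0 in the Drd1 stratum alone (edgeR, 293 at an unadjusted p under 0.05). Without a library in turn it ranged from 1 (without library 2) to 35 (without library 3). The count of lower genes (3) moved to 0 in DESeq2 (141 at an unadjusted p under 0.05) and, in edgeR, to 0 with no replicate block (241), 0 at 2000 to 4000 UMIs (243), 0 with cells thinned to 2000 UMIs (211), 0 without the 6 cells rich in Sst, Npy, Lyz2 or Spp1 (344), 0 with at least 5 spiny markers (292) and 0 in the Drd1 stratum alone (293). It moved to 8 with the default prior, 58 with the strata pooled and the replicate block of library, 6 at 3000 to 6000 UMIs, 9 with matched cells, 5 from a sum of 6, 5 from a sum of 3, 1 with the activity sum without Egr1, 1 with the stricter gate and 49 in the Adora2a stratum alone, and from 2 to 33 without a library in turn. With no replicate block, 3 genes were higher and Fos lost its call.

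The interaction count (2) became 0 in DESeq2 (25 at an unadjusted p under 0.05), 0 without the 6 cells in edgeR (114), 0 with at least 5 spiny markers (72) and 1 with matched cells; without library 2 or 3 it was not run, since 2 blocks leave no residual for it. Sst turned to 0.19 without the 6 cells and 0.10 with at least 5 spiny markers, and Npy to 0.10 and 0.077. Over the left-out libraries, the mCherry level ranged from -0.28 (without library 2) to 0.37 (without library 3), its share difference from -2.33 to 4.79 points, tTA from -0.34 to 0.57, and Egr1 in arms chosen without it from 1.28 (adjusted p 0.161, without library 2) to 1.34. The mCherry share difference also turned to -1.49 points thinned and -0.384 points matched. tTA turned to -0.016 thinned, -0.47 with the stricter gate and -0.18 in the Drd1 stratum. Apart from the changes whose construction leaves fewer cells or libraries, the cause was not tested. Leaving out library 1, requiring 10 cells per arm and dropping cells of over 30 mCherry UMIs left the sums as they were. The smallest sum held 16 cells and 57737 UMIs, and with 2 libraries the exact sign-flip test cannot go below p = 0.5.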
